A study of Homo sapiens with 8 samples.

Results

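The 10 genes that encode the core and assembly proteins of small nucleolar ribonucleoproteins (snoRNPs) were followed through RNA that had or had not been selected for an NAD cap. They were picked by gene symbol, by a rule that uses no measured value: FBL, NOP56, NOP58 and SNU13 of the C/D box particles, and DKC1, NHP2, NOP10, GAR1, NAF1 and WRAP53 of the H/ACA box particles and the Cajal body. The deposited table held 53216 RefSeq transcript rows, of which 23 belonged to these genes. Summed per gene, they gave 10 of 26408 gene rows, and all 10 passed the filter on low values in every comparison.

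A snoRNP pairs a small nucleolar RNA (snoRNA) with a core of proteins and modifies other RNAs, above all ribosomal RNA. C/D box particles add methyl groups to ribose, and H/ACA box particles turn uridine into pseudouridine. Many snoRNAs are cut from the introns of protein-coding genes, and some of the genes studied here carry snoRNAs in their own introns. An NAD cap is a nicotinamide adenine dinucleotide at the 5′ end of an RNA in place of the usual guanosine cap, and DXO is an enzyme that removes it.

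All RNA came from HEK293T cells, a human embryonic kidney line, grown without treatment. The 8 libraries fell into 3 groups: 2 wild-type (WT) libraries selected with RiboMinus, which depletes ribosomal RNA, 3 WT libraries selected by NAD-Capture, and 3 NAD-Capture libraries of cells labelled DXO-KO. In NAD-Capture an ADP-ribosyl cyclase exchanges part of the NAD cap for an alkyne, biotin is clicked on, and streptavidin beads bind the RNA. The labels do not say how the knockout was made, whether it is 1 clone, or whether replicates were separate cultures, so the p-values measure only the spread between these libraries. A TruSeq kit turned RiboMinus RNA into libraries and a SMARTer kit for low input served the captured RNA, so capture and library kit cannot be told apart. There was no RiboMinus library of cells labelled DXO-KO. A difference between the NAD-Capture groups thus cannot be told apart from one in total RNA level. Set against WT RiboMinus, the libraries labelled DXO-KO differ by label, capture and kit together. Libraries of a reaction without the cyclase were not analysed here, and thus no background of the capture can be set beside the values.

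As a check of the labels, DXO did not fall in the libraries labelled DXO-KO. Its level was 11.2 and 14.3 FPKM (fragment counts divided by transcript length and by library size) in RiboMinus RNA, and WT NAD-Capture RNA had 33.2, 17.2 and 27.1 FPKM. The libraries labelled DXO-KO had 127.6, 61.6 and 71.7 FPKM, so its captured RNA does not show the knockout. The level of DXO in total RNA of these cells was not measured. The log2 difference between the NAD-Capture groups was 1.69 with an SE of 0.387, limma adjusted p 0.116, and a two-sided exact permutation test gave p = 0.1, the smallest that 3 against 3 libraries allow. Depth read from the lowest FPKM steps was equivalent to 8724790 and 10669707 fragments in RiboMinus, and to between 80466 and 804779 in the NAD-Capture libraries. All 6 HEK293T marker genes were above 0 in every WT library, and 4 of the 6 were in every library labelled DXO-KO. Being above 0 is a weak check. In RiboMinus, PAX2 was only 0.0831 and 0.204 FPKM, below the fibroblast marker COL1A1 at 1.27 and 1.56. KRT8 and NEFM ranged from 2.81 to 4.98 FPKM there, and VIM was 321.4 and 307.6 FPKM. Of 9 markers of blood, liver, fibroblast and endothelial cells, 5 were at 0 in every library of a group, though not the same 5 in each group, and PTPRC and HBB were at 0 throughout. The summed level of the 9 was 1.82 to 3.19 FPKM in RiboMinus. It was 11.4 to 22.5 FPKM for WT NAD-Capture and 2.92 to 14.9 FPKM for libraries labelled DXO-KO, and its part in the results was not tested. In bulk RNA, fewer cells of a type and less RNA per cell cannot be told apart.

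An NAD cap placed by RNA polymerase sits on an RNA that begins with adenosine, so the annotated start base of the members is shown for the genes on which the results turn. RefSeq promoter entries (GRCh38.p14) matched 7 of the 10 genes, with 10 start entries. NOP58, SNU13 and NAF1 had no entry. The stretches run from 20 bases before the start to 10 bases from the start onward, 5′ to 3′ on the gene's own strand, with the start base in capitals.
FBL, chr19:39846370-39846399, minus strand: cgtcgccgcgcgcctgcgctCttttccacg
NOP56, chr20:2652612-2652641, plus strand: cgccggagcgcgctagccgcAttgcgagcc
DKC1, chrX:154762844-154762873, plus strand: gcacagggcagtgcgcgggtGggtgggtcc
NOP10, chr15:34343127-34343156, minus strand: attgacgaacacgtgacgcgGtcgggcgga
The start base was C in FBL, A in NOP56 and G in DKC1 and NOP10. Of the 10 entries 3 began with A, and over all 35116 RefSeq starts the share was 44.4%. The annotated start is a description, and the start that HEK293T cells use was not measured.

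The genes of 3 members carry small RNAs, among them snoRNAs of both classes. GENCODE release 29 places 13 small RNA genes inside members on the same strand, 11 snoRNAs and 2 microRNAs: 6 in NOP56, 4 in NOP58 and 3 in DKC1. They lie in introns, except SNORA56 in DKC1 and MIR1292 in NOP56, which overlap an annotated exon of their host. The table listed 12 of them, all but RF00575 in NOP58, and 6 were above 0 in at least 1 library. The 3 shown here had the signal in NAD-Capture RNA described further on. Capitals mark the C box (searched as ATGATGA or GTGATGA in the first 25 bases) and the D box (CTGA in the last 15 bases) of the C/D box snoRNA, and the ACA that ends 3 bases before the 3′ end of the H/ACA box snoRNAs, on the RNA's own strand.
SNORD11, in an intron of NOP58, chr2:202293051-202293134, plus strand: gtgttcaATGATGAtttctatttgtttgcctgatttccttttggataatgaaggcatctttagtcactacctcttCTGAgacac
SNORA36A, in an intron of DKC1, chrX:154768528-154768659, plus strand: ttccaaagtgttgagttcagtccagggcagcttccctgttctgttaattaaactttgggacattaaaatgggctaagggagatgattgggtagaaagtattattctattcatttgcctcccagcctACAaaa
SNORA51, in an intron of NOP56, chr20:2655067-2655198, plus strand: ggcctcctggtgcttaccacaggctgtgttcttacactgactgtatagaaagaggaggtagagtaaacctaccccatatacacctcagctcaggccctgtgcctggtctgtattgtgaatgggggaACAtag
Coordinates are GRCh38. Both C and D boxes were found by this search in 178 of 288 SNORD transcripts of GENCODE (61.8%), and the ACA in 112 of 149 SNORA transcripts (75.2%).

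In RiboMinus RNA, where the depth was greatest, the members spanned from NOP56 at 194.7 ± 10.7 FPKM (mean ± SD, n = 2) to NAF1 at 9.88 ± 2.17. FPKM is scaled per length, so these levels can be compared between genes. The order below NOP56 was FBL (180.5 ± 2.27), NOP10 (173.8 ± 16.6), NHP2 (133.4 ± 4.53), DKC1 (115.7 ± 3.03), NOP58 (115.6 ± 1.16), SNU13 (81.3 ± 6.31), GAR1 (29.9 ± 0.897) and WRAP53 (21.8 ± 0.979). The ranges of FBL and NOP10, and those of DKC1 and NOP58, overlapped, and no other neighbours did. The core proteins thus held the upper part of the order, except GAR1, while NAF1, an assembly factor that GAR1 replaces in the mature particle, and WRAP53, which brings H/ACA RNAs of the Cajal body to their site, were the least abundant.

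**Figure D1:**
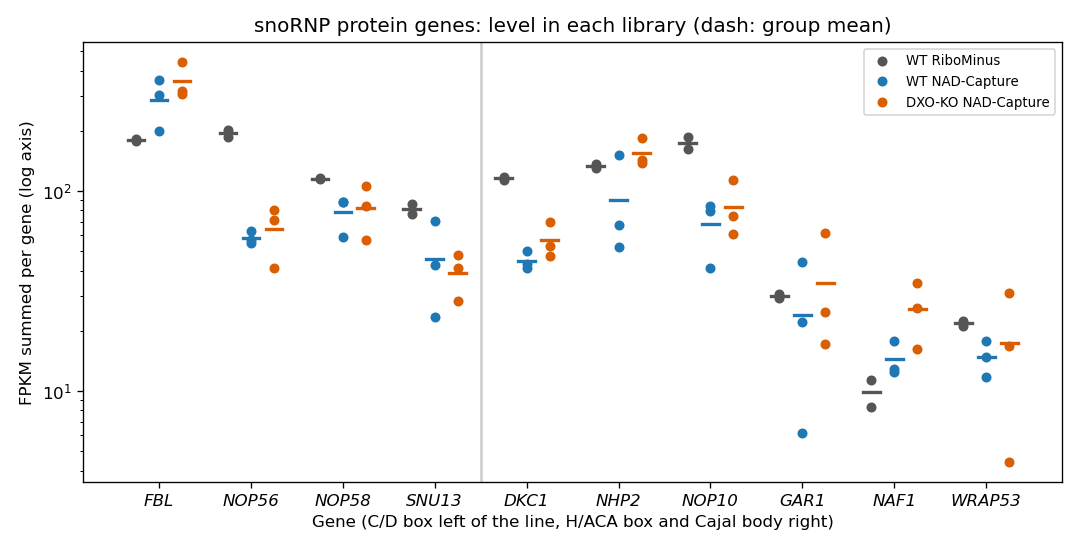
Level of each of the 10 genes in FPKM (log axis) in every library, grouped as 2 WT RiboMinus, 3 WT NAD-Capture and 3 NAD-Capture libraries labelled DXO-KO, with a dash at the group mean. NOP56 and DKC1 lie lower in all 6 NAD-Capture libraries than in both RiboMinus libraries, and FBL lies higher.

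In NAD-Capture RNA the order was led by FBL alone. FBL averaged 286.7 ± 81.0 FPKM (n = 3) in WT and 354.1 ± 74.9 in the libraries labelled DXO-KO, and its range did not reach that of NHP2, the next gene, at 90.5 ± 53.0 and 154.6 ± 25.3. In WT NAD-Capture every other pair of neighbours overlapped. In the libraries labelled DXO-KO, NHP2 also stood above NOP10 without overlap, and all lower neighbours overlapped.

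Far fewer fragments lay behind the NAD-Capture values. A member rested on 142 to 4748 fragments in a RiboMinus library (median 867.5), on 1 to 72 in a WT NAD-Capture library (median 12.5) and on 2 to 245 in a library labelled DXO-KO (median 11.5). The lowest was GAR1 in WT NAD-Capture replicate 1, whose 6.19 FPKM was the value of 1 fragment, with an exact 95% Poisson interval from 0.162 to 35.7 FPKM. These intervals cover counting error only.

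**Figure D2:**
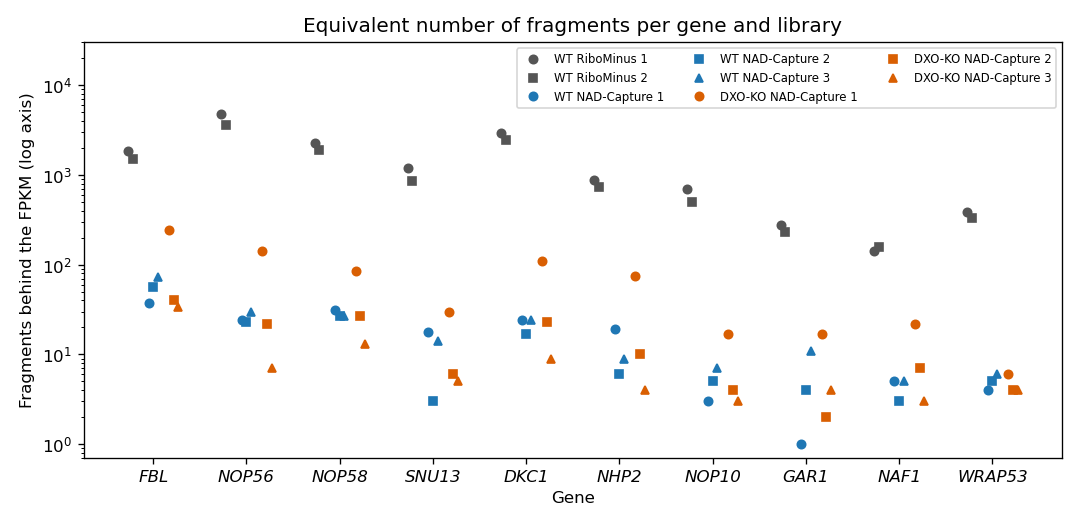
Number of fragments (log axis) to which each gene's FPKM was equivalent in each library, with colour for the group and symbol for the replicate. RiboMinus values span 142 to 4748 fragments, and NAD-Capture values 1 to 245.

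Among the 4 C/D box proteins, NOP56 fell in WT NAD-Capture relative to RiboMinus RNA, and the other 3 did not pass the threshold of an adjusted p of 0.05. NOP56 and NOP58 are the paired scaffold proteins of the particle, FBL (fibrillarin) is its methyltransferase, and SNU13 binds the kink-turn that the C and D boxes form. NOP56 stood at 202.3 and 187.1 FPKM in RiboMinus and at 57.0, 63.0 and 55.2 in WT NAD-Capture, so that the groups were far apart. The fitted log2 difference was −1.72 with an SE of 0.168 and a limma adjusted p of 0.00348. The 23 to 30 fragments behind each NAD-Capture value gave Poisson intervals of at most 94.9 FPKM, all below RiboMinus.

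FBL had the opposite sign. It was 182.1 and 178.9 FPKM in RiboMinus against 198.9, 358.5 and 302.8 in WT NAD-Capture. The groups did not overlap, but the log2 difference of 0.62 (SE 0.288) did not pass, with a limma adjusted p of 0.185. Without WT NAD-Capture replicate 1, which held 37 fragments of FBL, the log2 difference was 0.86 and the limma adjusted p 0.0315.

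NOP58 was 114.7 and 116.4 FPKM in RiboMinus and 87.8, 88.5 and 58.9 in WT NAD-Capture. Its groups did not overlap either, with a log2 difference of −0.58 (SE 0.242, limma adjusted p 0.149). SNU13 was 85.8 and 76.9 FPKM against 70.8, 23.4 and 42.6, also apart, with −0.95 (SE 0.465, limma adjusted p 0.206). The value of 23.4 rested on 3 fragments.

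In the H/ACA group DKC1 and NOP10 fell. DKC1 (dyskerin) is the pseudouridine synthase, and NOP10, NHP2 and GAR1 complete the core. DKC1 was 113.5 and 117.8 FPKM in RiboMinus and 50.3, 43.3 and 41.2 in WT NAD-Capture, a log2 difference of −1.35 (SE 0.180, limma adjusted p 0.00719). All 3 Poisson intervals of DKC1 lay below RiboMinus. NOP10 was 185.6 and 162.1 FPKM against 41.3, 79.5 and 84.1, a log2 difference of −1.40 (SE 0.352, limma adjusted p 0.0408). Only 3, 5 and 7 fragments lay behind these NOP10 values, and 1 of its 3 Poisson intervals was wholly below RiboMinus.

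The other 4 H/ACA and Cajal body genes did not pass. NHP2 had 130.2 and 136.6 FPKM in RiboMinus and 151.0, 52.5 and 68.0 in WT NAD-Capture, so that replicate 1 lay above RiboMinus and the others below it. Its log2 difference was −0.70 (SE 0.464, limma adjusted p 0.321), and without that replicate it was −1.15 with a limma adjusted p of 0.0273. GAR1 had 29.3 and 30.6 FPKM against 6.19, 22.1 and 44.1, an overlap, and −0.66 (SE 0.768, limma adjusted p 0.559). WRAP53 had 21.1 and 22.5 FPKM against 11.7, 17.9 and 14.8, apart, and −0.55 (SE 0.253, limma adjusted p 0.185). NAF1 was the other member with a positive sign, at 8.35 and 11.4 FPKM against 17.9, 12.5 and 12.9, apart, with 0.50 (SE 0.282, limma adjusted p 0.262).

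Counted over WT NAD-Capture against RiboMinus, 3 of the 10 members were called, all lower, where limma called 24.7% of the 17210 genes tested, 16.8% higher and 7.91% lower. The 3 were also the members with an unadjusted p under 0.05, which 37.8% of genes had. Groups did not overlap for 8 members, 2 higher and 6 lower, against 55.5% of all genes, 28.8% higher and 26.7% lower. Of the 6945 genes with a mean of at least 10 FPKM, 1090 were called higher and 1106 lower. Among these genes, 1782 lay higher without overlap and 2964 lower. The median log2 difference of the members was −0.68, beside 0.22 for all genes and −0.33 for the 6945 genes with a mean of at least 10 FPKM. Leaving out either RiboMinus library ended all 3 calls, with 0 members and 19 or 25 genes called, where the 1 library left in that group is assumed to vary like the others. NOP10 also lost its call without WT NAD-Capture replicate 2 (limma adjusted p 0.0604) or 3 (0.0546), with no filter on low values (0.0632), with quantile normalization (0.0686) and on single transcripts (0.0649), which each left NOP56 and DKC1 called. Centring each library on its median gene, which moved the median of all genes from 0.22 to −0.28, called NOP58 and WRAP53 lower as well, 5 members in all.

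Against the same RiboMinus libraries, which this comparison shares with the previous one, no member was called in the NAD-Capture libraries labelled DXO-KO. NOP56 was 80.3, 71.5 and 41.2 FPKM there, below both RiboMinus libraries, with a log2 difference of −1.64 (SE 0.345, limma adjusted p 0.0672). DKC1 was 53.2, 70.4 and 47.1 FPKM, also below, with −1.03 (SE 0.259, limma adjusted p 0.0991). For both genes all 3 Poisson intervals lay below RiboMinus.

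FBL was 317.2, 304.9 and 440.3 FPKM in the libraries labelled DXO-KO, above both RiboMinus libraries, with a log2 difference of 0.95 (SE 0.288, limma adjusted p 0.142) and all 3 Poisson intervals above RiboMinus. NAF1 was 16.2, 34.8 and 26.1 FPKM, also above, with 1.25 (SE 0.394, limma adjusted p 0.153). NHP2 was 142.4, 183.7 and 137.7 FPKM, just above RiboMinus, with 0.20 (SE 0.248, limma adjusted p 0.661).

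SNU13 was 28.2, 41.3 and 48.0 FPKM, below RiboMinus, with −1.07 (SE 0.296, limma adjusted p 0.120), and NOP10 was 60.8, 75.4 and 113.8 FPKM, also below, with −1.10 (SE 0.327, limma adjusted p 0.136). NOP58 was 56.7, 106.0 and 84.6 FPKM, again below, with −0.53 (SE 0.320, limma adjusted p 0.412). WRAP53 ran from 4.41 to 30.8 FPKM and GAR1 from 17.1 to 62.0 FPKM, and both ranges enclosed RiboMinus. Their log2 differences were −0.65 (limma adjusted p 0.643) and 0.00 (interval −1.36 to 1.36).

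Limma called 0 of the 10 members in this comparison, against 3.34% of 15223 genes (2.5% higher, 0.841% lower), and 6 members had an unadjusted p under 0.05, against 21.1% of genes. The groups of 8 members did not overlap, 3 higher and 5 lower, against 44.3% of genes, 24.2% higher and 20.2% lower. Of the 7020 genes with a mean of at least 10 FPKM, 284 were called higher and 116 lower. Among these genes, 1831 lay higher without overlap and 2061 lower. Without DXO-KO replicate 3, the shallowest library, NOP56 (−1.35, limma adjusted p 0.0393) and NOP10 (−1.34, limma adjusted p 0.0442) were called lower, and with all 8 libraries in a common fit NOP56 was (limma adjusted p 0.0205). SNU13 was called lower with centring (limma adjusted p 0.0485) and with quantile normalization (0.0406), which also called NOP10 lower (0.0203).

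**Figure D3:**
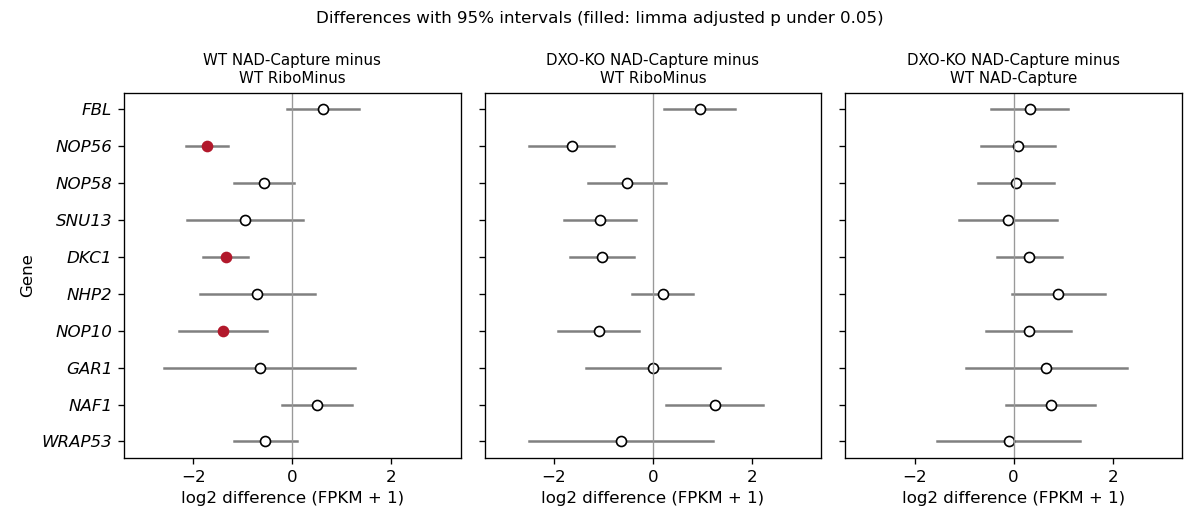
Log2 difference of FPKM + 1 for each gene with its 95% interval from limma, in the 3 comparisons, filled where the adjusted p was under 0.05. Only NOP56, DKC1 and NOP10 in WT NAD-Capture against RiboMinus are filled, and in the comparison between the NAD-Capture groups every interval includes 0.

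Between the NAD-Capture groups no member differed beyond the spread of the libraries. Without RiboMinus RNA of the cells labelled DXO-KO, this comparison does not separate NAD capping from total RNA level. Limma called 0 of the 10, against 0.0334% of 17964 genes (0.0167% higher and 0.0167% lower), and 0 had an unadjusted p under 0.05, against 16.6%. The groups of every member overlapped, while those of 23.2% of all genes did not (11.7% higher, 11.5% lower). The sign was positive for 8 members and negative for SNU13 and WRAP53. The median was 0.31, beside −0.02 for all genes and 0.27 for the 7116 genes with a mean of at least 10 FPKM.

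NHP2 came nearest to the threshold. Its 142.4, 183.7 and 137.7 FPKM in the libraries labelled DXO-KO overlapped the 151.0, 52.5 and 68.0 of WT through replicate 1 of WT, and the log2 difference was 0.90 (interval −0.03 to 1.84, limma p 0.0558, adjusted p 0.309). NAF1 followed with 0.75 (interval −0.15 to 1.64, limma adjusted p 0.360) and GAR1 with 0.66 (interval −0.96 to 2.28).

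For the C/D box genes the differences were 0.33 for FBL (interval −0.45 to 1.11), 0.08 for NOP56 (−0.66 to 0.83), 0.05 for NOP58 (−0.71 to 0.81) and −0.11 for SNU13 (−1.11 to 0.88). DKC1 had 0.32 (−0.34 to 0.98), NOP10 0.30 (−0.57 to 1.17) and WRAP53 −0.10 (−1.54 to 1.34). Each of these intervals holds decreases as well as increases, and they do not show that the groups are alike.

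The sum of the C/D box genes was lower in all 3 WT NAD-Capture libraries than in RiboMinus RNA, while 1 library labelled DXO-KO lay above RiboMinus. The share that FBL held of the sum was higher in all 6 NAD-Capture libraries. The 4 C/D box genes summed to 584.9 and 559.3 FPKM in RiboMinus. The sums were 414.5, 533.5 and 459.4 FPKM for WT NAD-Capture and 482.4, 523.6 and 614.1 FPKM for libraries labelled DXO-KO. FBL made up 31.1% and 32.0% of that sum in RiboMinus, and from 48.0% to 71.7% in the 6 NAD-Capture libraries. The ratio of FBL to NOP56, chosen after the values were seen, was 0.901 and 0.956 in RiboMinus. It came to 3.49, 5.69 and 5.49 for WT NAD-Capture and to 3.95, 4.27 and 10.7 for libraries labelled DXO-KO. The 6 H/ACA and Cajal body genes summed to 488.1 and 481.0 FPKM in RiboMinus. The sums were 278.4, 227.8 and 265.0 FPKM for WT NAD-Capture and 302.0, 398.4 and 417.4 FPKM for libraries labelled DXO-KO, so every NAD-Capture library lay below RiboMinus. No test was made of these sums and ratios.

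The division of a gene's FPKM among its RefSeq rows differed between libraries. FBL, NOP58 and NOP10 had 1 row each, and the other genes had 2 to 6. In NOP56 the non-coding row NR_027700 held 43.7% and 50.9% in RiboMinus, 29.6% in DXO-KO replicate 1 and 0 in the other 5 NAD-Capture libraries, which left all of NOP56 to NM_006392. Taken alone, NM_006392 gave a log2 difference of −0.80 between WT NAD-Capture and RiboMinus (limma adjusted p 0.0496), where the gene sum gave −1.72.

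In DKC1 the row NM_001363 held 85.2% and 82.7% in RiboMinus and at most 0.102% in WT NAD-Capture. There NM_001142463, at 0 in RiboMinus, held 58.5%, 62.7% and 76.8%. In the libraries labelled DXO-KO, NM_001363 held 25.4%, 82.5% and 0.0879%, so that replicates did not share a leading row. For NHP2, NM_017838 held 85.3% and 81.2% in RiboMinus and 100%, 99.9% and 58.6% in WT NAD-Capture, and then 92.4%, 0 and 0 in the libraries labelled DXO-KO. With 4 to 24 fragments for NHP2 and DKC1 in each NAD-Capture library other than DXO-KO replicate 1, the shares rest on few fragments, and gene sums were used for the comparisons.

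**Figure D4:**
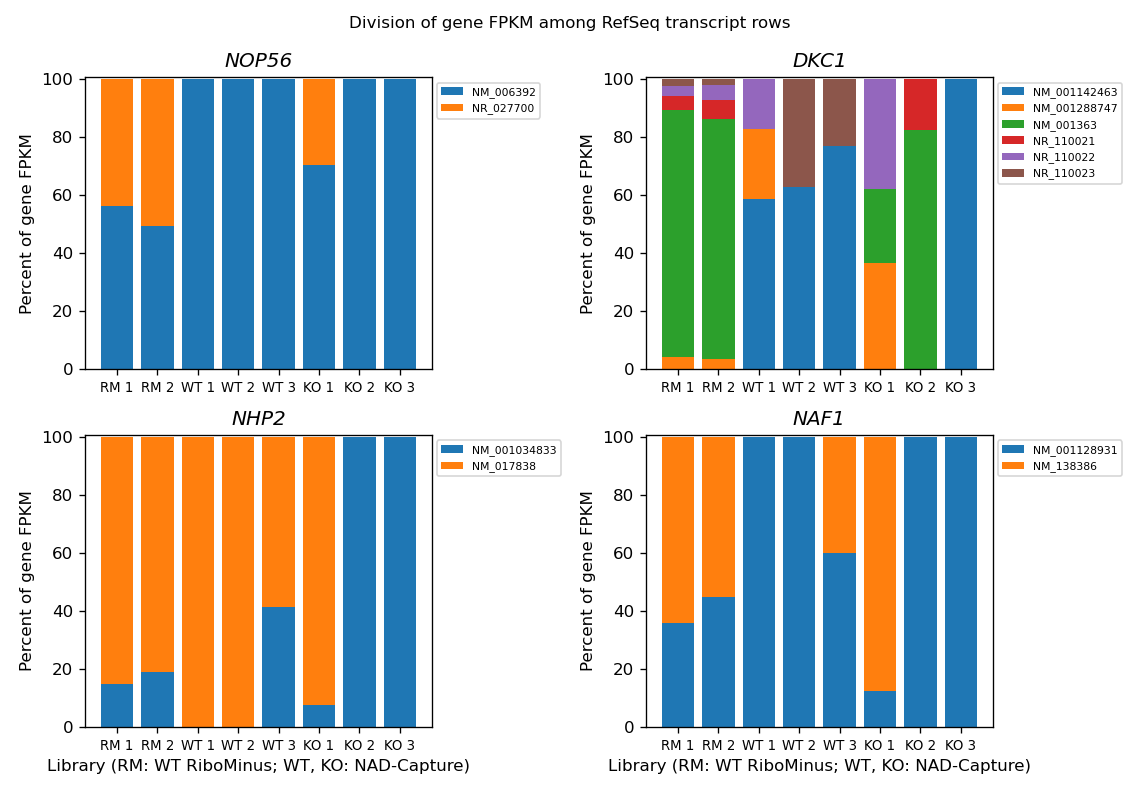
Percent of the FPKM of NOP56, DKC1, NHP2 and NAF1 held by each of their RefSeq rows in the 8 libraries (RM, RiboMinus; WT and KO, NAD-Capture). In RiboMinus at least 2 rows of each gene hold FPKM, and in several NAD-Capture libraries 1 row holds all or nearly all of it.

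The small RNAs inside the members are given by their listed values. SNORA36A, in DKC1, was listed at 0 in both RiboMinus libraries, at 2530, 1129 and 1061 FPKM in WT NAD-Capture, and its values were 1320, 3067 and 10337 FPKM where labelled DXO-KO. All 6 NAD-Capture libraries were thus above RiboMinus, but SNORA36A too passed the filter only through the libraries where it was above 0, so its test against RiboMinus is not used. Its host DKC1 was lower in NAD-Capture than in RiboMinus RNA. SNORA51, in NOP56, was listed at 89.3 and 0 FPKM in RiboMinus. WT NAD-Capture had 467, 1045 and 695 FPKM and the libraries labelled DXO-KO 749, 567 and 6362 FPKM, again apart from RiboMinus, but SNORA51 did not pass for WT (limma adjusted p 0.0642) or for the libraries labelled DXO-KO (0.126). Between the NAD-Capture groups neither passed, with limma adjusted p-values of 0.444 for SNORA36A and 0.570 for SNORA51.

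SNORD11, in NOP58, was listed at 0 in all 5 WT libraries, and the libraries labelled DXO-KO had 9115, 59810 and 114765 FPKM. It was among the 6 genes that limma called between the NAD-Capture groups, but it passed the filter only through the libraries where it was above 0, so the call supports nothing here. FPKM of a row this short becomes very large for few fragments. In each library labelled DXO-KO its value was also the lower of the only 2 above 0 among the 63 gene rows of 84 nt. It may thus stand for as little as 1 fragment, but 2 rows are too few to show this. On the same measure, SNORA51 was 1, 1 and 2 times the lowest value of the 12 rows of 132 nt in WT NAD-Capture, and 8, 1 and 2 times in the libraries labelled DXO-KO. SNORA36A was 5.42, 1.08 and 3.05 times that lowest value in WT NAD-Capture, and 14.1, 5.41 and 3.25 times in the libraries labelled DXO-KO.

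SNORA56, in DKC1, was above 0 in 1 RiboMinus library, 2 WT NAD-Capture libraries and 1 library labelled DXO-KO. Because it overlaps an exon of DKC1, reads of the host cannot be told apart from it. SNORD57 and SNORD110, in NOP56, were above 0 in RiboMinus replicate 2 alone, at 3458 and 4918 FPKM. SNORD70 and SNORD11B of NOP58, SNORD86, SNORD56 and MIR1292 of NOP56 and MIR664B of DKC1 were listed at 0 in every library. MIR664B lies within SNORA36A, and a fragment of a host intron and a finished snoRNA cannot be told apart in these values.

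Of 14 further proteins that assemble or carry snoRNPs, 6 fell in WT NAD-Capture relative to RiboMinus. The list held the RUVBL1, RUVBL2, PIH1D1 and RPAP3 chaperone complex (R2TP), the C/D box assembly factors ZNHIT3, ZNHIT6, NUFIP1 and NOPCHAP1, the H/ACA chaperone SHQ1, the nucleolar and Cajal body proteins NOLC1, TCOF1 and COIL, the export adaptor PHAX and the cap hypermethylase TGS1. Over all genes 7.91% were called lower, and of the 6945 genes with a mean of at least 10 FPKM 1106 were. None of the 14 was called higher, and the median log2 difference over the 14 was −1.07, beside the 0.22 of all genes and the −0.33 of genes with a mean of at least 10 FPKM.

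Those 6 were SHQ1 (−2.33, limma adjusted p 0.0373), RPAP3 (−1.32, 0.0408), NOLC1 (−1.32, 0.00994), TCOF1 (−1.23, 0.0133), NOPCHAP1 (−1.18, 0.0255) and COIL (−0.97, 0.0449). SHQ1 was 29.4 and 26.3 FPKM in RiboMinus and 3.94, 2.29 and 10.7 in WT NAD-Capture. There 1 fragment at 1 kb was equivalent to 5.20, 6.05 and 4.02 FPKM, so these SHQ1 values rest on few fragments. Whether each of the 6 calls holds under the alternative settings was not tested. NOLC1, a phosphoprotein that binds both classes of snoRNP, was 147.9 and 144.1 FPKM in RiboMinus and 68.7, 55.5 and 51.1 in WT NAD-Capture. TCOF1 (treacle) was 68.1 and 72.3 FPKM against 34.8, 27.8 and 26.2. All 14 had a negative sign in this comparison, as did 7675 of the 17210 genes tested. Of the 6945 genes with a mean of at least 10 FPKM, 4258 did.

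In the libraries labelled DXO-KO against RiboMinus, limma called 0 of the 14, against 3.34% of genes, and 3 had an unadjusted p under 0.05, against 21.1%. The lowest fitted differences were those of NOPCHAP1 (−2.35, limma adjusted p 0.376) and NOLC1 (−1.67, 0.0525), and the highest those of NUFIP1 (0.26, 0.798) and ZNHIT6 (0.09, 0.894). Between the NAD-Capture groups limma also called 0, against 0.0334% of genes, with 3 at an unadjusted p under 0.05, against 16.6%, and a median of 0.45. NUFIP1 (1.86, limma adjusted p 0.299) and SHQ1 (1.61, 0.268) had the largest positive values, and NOPCHAP1 (−1.17, 0.571) and NOLC1 (−0.35, 0.582) the largest negative ones. Values at 0 lie behind some of these extremes. NUFIP1 was 0, 0 and 2.47 FPKM in WT NAD-Capture, so it passed the filter through the libraries labelled DXO-KO. NOPCHAP1 was 15.8, 15.5 and 0 FPKM in the libraries labelled DXO-KO, with the 0 in replicate 3, the shallowest library.

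Some members share their place in the genome with a gene on the other strand, and the sources used here do not state whether counting used strand. NHP2 overlaps RMND5B, SNU13 overlaps C22orf46 and NAF1 overlaps AC022272.1, so reads of each pair cannot be told apart. RMND5B was 17.4 and 18.7 FPKM in RiboMinus and ranged from 2.94 to 28.4 FPKM in NAD-Capture RNA. Processed pseudogenes of FBL, NOP56 and NHP2 exist, and how reads they share with these genes were divided is not given in the sources used here.

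The genes whose levels ran most like the mean of each class were named as a description. Within each class the genes did not all run alike. FBL had a Pearson r of −0.78 with NOP56, −0.78 with SNU13 and −0.51 with NOP58. NOP56, NOP58 and SNU13 correlated with each other at 0.55 to 0.59. Among the H/ACA and Cajal body genes, r ran from −0.45 for NOP10 with NAF1 to 0.70 for DKC1 with NOP10. In both classes the match is thus to the class mean and not to each gene. Over the 8 libraries, the mean log2(FPKM + 1) of the 4 C/D box genes was most like that of SFPQ (Pearson r = 0.979), TBRG4 (0.977) and MCM2 (0.976), among 7058 genes with a mean of at least 10 FPKM. For the 6 H/ACA and Cajal body genes these were WTAP (0.977), ECHDC1 (0.974) and HM13 (0.974). The 8 libraries differ by group, kit and depth, which all these genes share.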

How the data were processed

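RNA-seq of 8 HEK293T libraries was used. Per the labels' protocols, RNA was extracted with TRIzol, and RiboMinus or NAD-Capture RNA was converted to libraries with different kits. The authors deposited FPKM values per RefSeq transcript. The submitters' processing notes name TopHat2 2.1.1, Bowtie2 2.2.8.0, Cuffdiff and build hg19; the annotation version and strand setting are not given in the sources used here.

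RefSeq (GRCh38.p14) and GENCODE 29 tables, used for names and sequences, gave a symbol to 52756 of 53216 transcripts (99.1%). FPKM were summed per symbol. Comparisons used limma 3.58.1 (R 4.3.3; lmFit and eBayes with trend, two-sided) on log2(FPKM + 1), for genes with a mean of at least 1 FPKM in the libraries compared, with Benjamini-Hochberg adjustment over all of them and a threshold of 0.05. Each fit held the 2 groups of its comparison. Differences on this scale understate those of low genes. The fits were also run on simulated log2 values with normal noise and known changes added. A slope close to the one put in follows there from the model, and low fragment counts were not imitated. That run checks the code only, not how the fits handle the NAD-Capture values. Python 3.11.15, numpy 2.4.6, pandas 2.3.3, scipy 1.17.1 and matplotlib 3.10.9 were used for the rest.

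Depth came from the step between low FPKM values of 7162 transcripts that are alone under their symbol, with 200 nt taken off each length; 70.8% to 73.3% of the low values were within 4% of whole multiples. FPKM of genes with several rows do not resolve into whole reads, so no count test was run. Fragments behind a member, with exact 95% Poisson intervals, use GENCODE 29 lengths.

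The members and lists were chosen with earlier results of these data known. All 10 members, the small RNAs inside them and DXO are named, as are assembly factors past the threshold (or the 2 with the largest difference in a direction) and the 3 genes most like each class. Alternatives were a pseudocount of 0.1, no filter, a mean of at least 10, median centring, quantile normalization, blocking on the replicate number, a fit over all 8 libraries, single transcripts and leaving out each library.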

Additional observations from a re-analysis of the deposited data

How the results depend on the processing

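The results below changed with the processing; the cause was not tested unless stated. Between the NAD-Capture groups 6 genes were called, 10 with centring on the median gene (7 higher, 3 lower), 27 with quantile normalization, 442 with all 8 libraries in a common fit, 18 on single transcripts, and 4 to 16 when a library was left out; no member was called in any of these. DXO passed in the common fit (1.69, limma adjusted p 0.0496). In WT NAD-Capture against RiboMinus the 4246 genes called became 2395 at a mean of at least 10 FPKM, where fewer genes were tested, 2441 with quantile normalization, 2675 in the common fit and 19 to 5436 with a library left out; the members called were 5 with centring, 2 with no filter, quantile normalization or single transcripts, and 0 to 5 with a library left out. Centring also turned the split of 2884 higher and 1362 lower into 2219 and 3194. In the libraries labelled DXO-KO against RiboMinus the 508 genes became 86 with no filter, 819 with quantile normalization, 887 in the common fit and 0 to 1530 with a library left out; the members called were 1 with centring, 2 with quantile normalization, 1 in the common fit and 0 to 2 with a library left out.

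Signs that turned belonged to members that had not passed. Between the NAD-Capture groups, centring gave SNU13 0.019 and WRAP53 0.031; quantile normalization gave FBL −0.00062, NOP56 −0.22, NOP58 −0.28 and NOP10 −0.070; single transcripts gave NOP56 −0.082, SNU13 1.22, NHP2 −3.76 and WRAP53 0.61. Against RiboMinus, in the libraries labelled DXO-KO, GAR1 was −0.0055 at a pseudocount of 0.1 and −0.25 with centring, and NHP2 was −0.055 with centring, −0.033 with quantile normalization and −4.46 on single transcripts.
With a library left out, the values between the NAD-Capture groups ran from −0.51 to 0.27 for SNU13, −0.021 to 0.50 for NOP10, −0.060 to 1.26 for GAR1, −0.67 to 0.61 for WRAP53, −0.15 to 0.29 for NOP58 and −0.10 to 0.37 for NOP56. Against RiboMinus, GAR1 ran from −1.26 to 0.060 in WT NAD-Capture and from −0.51 to 0.39 in the libraries labelled DXO-KO, where WRAP53 ran from −1.21 to 0.064.

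Deviations of libraries with the same replicate number correlated at −0.0633 to 0.0425, and those with different numbers at −0.0924 to 0.0924. The NAD-Capture values rest on few fragments, and the deviations of the 2 RiboMinus libraries mirror each other. These correlations therefore cannot show whether the replicate numbers pair the libraries. With the number as a block, 0 genes and 0 members were called in either comparison with RiboMinus, where NOP56 was −1.68 (limma adjusted p 0.0976), DKC1 −1.29 (0.0976) and NOP10 −1.58 (0.146) in WT NAD-Capture, and GAR1 was −0.51 in the libraries labelled DXO-KO. RiboMinus has no replicate 3, so NAD-Capture replicate 3 stood alone in its block and added nothing to these differences. Without replicate 3 and without the block, 5129 genes and 2 members were called in WT NAD-Capture. For the libraries labelled DXO-KO these were 1530 and 2. The block also used up degrees of freedom, so its 0 calls do not show that differences are absent.

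Depth limits the NAD-Capture values: GAR1, NOP10, NAF1 and WRAP53 rested on at most 22 fragments in each of these libraries, and SNORD11 on an unknown number.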
